A study of Rattus norvegicus with 6 samples.

Results

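The genes described here are 9 genes of the oligodendroglial and Schwann cell lineages, Sox10, S100b, Pdgfra, Cspg4, Olig1, Olig2, Erbb3, Mbp and Cnp, in cultures labelled as PC12, a rat pheochromocytoma cell line. They were found by their symbols in the deposited count table, where all 9 of 9 listed symbols matched a row each, among 20609 genes in all. The genes were selected on their counts in these libraries, which were known when the list was drawn up, so their levels are given as a description with no test. RNA-seq of poly-A RNA gave 3 libraries from cells transfected with a control plasmid (control). Another 3 libraries came from cells transfected for PCBP1 overexpression with an EGFP-tagged PCBP-1 plasmid (PCBP1-OE). The cells were grown with fetal bovine serum. The labels do not say whether the 3 libraries of a group came from separate transfections, so p-values measure the spread between these libraries, which may be technical. No row of the table was matched to Pcbp1, so its overexpression was not checked in these libraries.

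SOX10 is a transcription factor of the neural crest that is kept in Schwann cells and in the oligodendrocyte lineage, where it drives myelin genes together with OLIG2 and MYRF. Oligodendrocyte precursors are recognised by PDGFRA, the receptor for PDGF-AA, and by the proteoglycan NG2, the product of Cspg4, and Schwann cells depend on the neuregulin receptor pair ERBB3 and ERBB2. Chromaffin cells, from which pheochromocytomas arise, also descend from the neural crest, but they are known for catecholamine synthesis and chromogranin-filled granules and are not known for SOX10 once differentiated.

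Sox10, S100b, Pdgfra, Cspg4, Erbb3 and Cnp were abundant in every library of both groups, while Olig2 and Olig1 were low and Mbp was near the limit of detection. The libraries held 19730209 to 22315623 counts on genes. Levels are given as counts and as CPM, counts per 1000000 counts of a library after TMM scaling. Transcript lengths were not used, so CPM of different genes are shares of reads and not molecules per cell. In bulk RNA, fewer cells that express a gene cannot be told apart from less RNA per cell.

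Sox10 (ENSRNOG00000011305, chromosome 7), the lineage transcription factor, was counted 7635, 8515 and 9007 times in controls and 7975, 7565 and 7160 times in PCBP1-OE. More reads fell on it than on 98.1% of the genes in the table. Its mean level was 399.7 ± 9.45 CPM in controls and 367.5 ± 6.73 CPM in PCBP1-OE (SD, n = 3 each), and no PCBP1-OE library reached the lowest control. Of all genes tested between the groups, 16.5% lay lower in PCBP1-OE without overlap.

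The bHLH factors of the lineage were much lower. Olig2 (ENSRNOG00000028658, chromosome 11), which specifies oligodendrocyte precursors and motor neurons, was counted 116, 112 and 114 times in the control libraries and 99, 83 and 109 times after overexpression, at 5.455 ± 0.423 and 4.72 ± 0.753 CPM (SD, n = 3 each). Olig1 (ENSRNOG00000028648), its neighbour on chromosome 11, was counted 25, 44 and 41 times without and 22, 21 and 33 times with overexpression, at 1.74 ± 0.424 and 1.24 ± 0.385 CPM (SD, n = 3 each). For both genes the groups overlapped, and the third PCBP1-OE library was the highest of its group.

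The receptors and the surface proteoglycan were high. Pdgfra (ENSRNOG00000002244, chromosome 14) was counted 4373, 4709 and 4941 times in controls and 4534, 3939 and 4070 times in PCBP1-OE, which gave 223 ± 2.635 and 203 ± 6.74 CPM (SD, n = 3 each). Cspg4 (ENSRNOG00000017208, chromosome 8), which encodes NG2, was counted 3899, 4522 and 4662 times in the control libraries and 4160, 3930 and 3435 times after overexpression, at 208 ± 8.90 and 186 ± 9.94 CPM (SD, n = 3 each). Erbb3 (ENSRNOG00000004964, chromosome 7), a neuregulin receptor without strong kinase activity of its own, was counted 1802, 1922 and 2025 times without and 1855, 1754 and 1500 times with overexpression, at 91.4 ± 0.980 and 82.6 ± 5.36 CPM (SD, n = 3 each). In CPM, all 3 controls lay above all 3 PCBP1-OE libraries for each of these genes. The same held for 16.5% of all genes tested.

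S100b (ENSRNOG00000001295, chromosome 20), a calcium-binding protein of Schwann cells, astrocytes and part of the oligodendrocyte lineage, was counted 4280, 5071 and 5339 times in controls and 4680, 4425 and 4143 times in PCBP1-OE. Its level was 233 ± 13.1 CPM in controls and 214 ± 4.28 CPM in PCBP1-OE (SD, n = 3 each). The groups overlapped, because control replicate 1, at 218.3 CPM, lay below PCBP1-OE replicate 2, at 219.3 CPM.

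The myelin-associated members split. Cnp (ENSRNOG00000017496, chromosome 10), an enzyme of non-compact myelin that is made early in the lineage and at a low level in many other cells, was counted 1242, 1458 and 1408 times in the control libraries and 1192, 1135 and 1051 times after overexpression, at 65.3 ± 3.93 and 54.7 ± 1.39 CPM (SD, n = 3 each). Mbp (ENSRNOG00000016516, chromosome 18), which compacts the myelin sheath, was counted 5, 9 and 13 times without and 12, 8 and 8 times with overexpression, at 0.422 ± 0.163 and 0.450 ± 0.08225 CPM (SD, n = 3 each). Cnp did not overlap between groups, with controls higher, which was so for 16.5% of all genes tested. Mbp overlapped, and its lowest library, at 0.255 CPM, lay close to the 0.134 to 0.153 CPM that 3 counts correspond to, the floor used here.

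**Figure D1:**
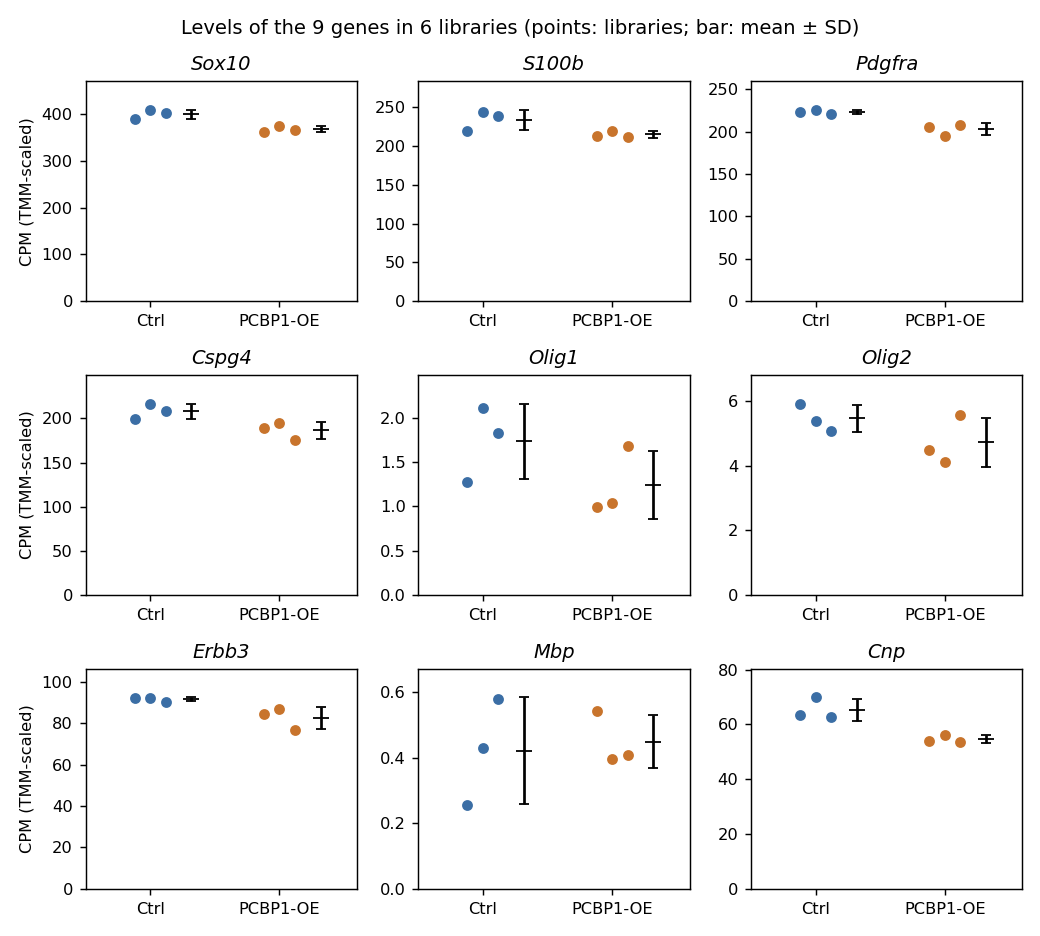
CPM (TMM-scaled, axis from 0) of each of the 9 genes in the 3 control (blue) and 3 PCBP1-OE (orange) libraries, replicates 1 to 3 from left to right, with the mean ± SD (n = 3) as a black bar. Sox10, Pdgfra, Cspg4, Erbb3 and Cnp show no overlap between groups, whereas Olig1, Olig2, S100b and Mbp overlap. Of all genes tested between the groups, 30.6% show no overlap, 16.5% with controls higher.

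Sox10 encodes a DNA-binding factor, and promoter sequences of RefSeq (build GRCr8) were searched for the core letters recognised by SOX proteins. These were ACAAAG and ACAATG, on both strands in the 250 bases before the start. An entry was found for 6 of the 9 members, and in 2 of them, Cnp and Mbp, at least 1 entry held a match. Of all 33469 promoter entries 25.3% held one. The window of Cnp is shown because Cnp was called in the comparison of the groups, which Sox10 was not. That of Mbp, which had too few counts for the test, is not shown. In Cnp the match begins 203 bases before the start, at chr10:86011289-86011318 for the window of 30 bases shown on the plus strand, with the match in capitals.
Cnp: aacttttaagtaACAAAGaggtggcggact
The match is a description of the letters in this window, and binding was not measured in these samples.

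The label PC12 was checked against a list of 20 chromaffin genes, of which 17 matched a row and 5 had enough counts to be tested. Most defining genes of the list were at or near 0. Chga, the chromogranin A gene, was counted 0, 0 and 2 times in controls and 0, 0 and 3 times in PCBP1-OE. Dbh, which converts dopamine to noradrenaline, was counted 5, 1 and 4 times in controls and 1, 0 and 1 times in PCBP1-OE. A count of 0 allows up to 0.153 CPM. Th, the rate-limiting enzyme of catecholamine synthesis, was present at 141 to 185 counts per library, and Scg2, the secretogranin II gene, at 2607 to 3553. Gata2 and Gata3 followed, at 21 to 50 and 26 to 38 counts per library. Of the 17 chromaffin genes, 9 had at most 10 counts in every library, and 9 were at 0 in at least 1 library. The summed level of the list was 154.3 to 183.6 CPM in controls and 143.9 to 157.7 CPM in PCBP1-OE, and most of it was Scg2.

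Other genes of the precursor stage were present in part. Of 16 oligodendrocyte precursor genes besides the members, 15 matched and 8 could be tested. Vcan, the proteoglycan versican, was counted 7494 to 9109 times per library, Ptprz1, a receptor phosphatase, 2036 to 2566 times, the SOX factor Sox6 340 to 391 times and Nkx2-2, a homeodomain factor of the lineage, 216 to 286 times. Of the 15 genes, 6 had at most 10 counts in every library.

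Genes of mature oligodendrocytes were low throughout. Of the 17 genes listed, 12 matched and 5 could be tested. Aspa, which breaks down N-acetylaspartate, had 66 to 85 counts per library and Myrf, the myelin regulatory factor, 30 to 55. Mog was counted 0, 1 and 3 times in controls and 0, 2 and 0 times in PCBP1-OE, and none of the 12 genes reached a mean of 10 CPM.

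The Schwann and neural crest list held abundant genes beside genes near 0. Of its 22 genes, 20 matched and 13 were tested, and 6 had at most 10 counts in every library. Ncam1, an adhesion molecule, was counted 4314 to 5701 times per library, Ngfr, the low-affinity neurotrophin receptor, 3664 to 4441 times, Sox2, a factor of immature glia, 3501 to 4412 times and Pmp22, a protein of peripheral myelin and growth arrest, 3163 to 3968 times. Egr2, the driver of peripheral myelination, was at 342 to 389 counts. Foxd3 was not matched and is not analysed here.

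Partners of the receptors were unequal. Of the 12 ErbB and PDGF signalling genes, Pdgfc, a ligand of PDGFRA, had 1363 to 1638 counts per library and Pdgfa, another of its ligands, 927 to 1107. Pdgfrb had 535 to 676 counts, and Erbb2, the co-receptor of ERBB3, 437 to 630. Egfr had 0 to 1 and Erbb4 0 to 4 counts per library, both singled out after their values were seen.

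Markers of other cell types were mostly low. In the astrocyte list Gja1 was highest, at 349 to 437 counts per library, followed by S100a1 at 282 to 369 and Fgfr3 at 273 to 352, while Gfap had 80 to 145 counts and 4 of the 9 genes were at 0 in at least 1 library. Of the 12 neuronal genes, Snap25 reached 197 to 266 counts and 7 had at most 10 in every library. The summed level of 6 leukocyte genes was 3.04 to 4.36 CPM over all libraries, most of it Cd68, and Ptprc had 0 to 3 counts. Fibroblast and mural genes summed to 31.8 to 37.8 CPM, of which Pdgfrb was the largest part, and endothelial genes to 14.0 to 16.5 CPM. In the melanocyte list, Pmel had 359 to 447 and Mitf 195 to 273 counts per library. In the adrenal cortex list Cyp11b2 was highest, at 81 to 114 counts. By these markers, the label PC12 was not borne out by Chga and Dbh. Of the same chromaffin list, Th (141 to 185 counts per library) and Scg2 (2607 to 3553) were present. No other cell type name is given here.

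**Figure D2:**
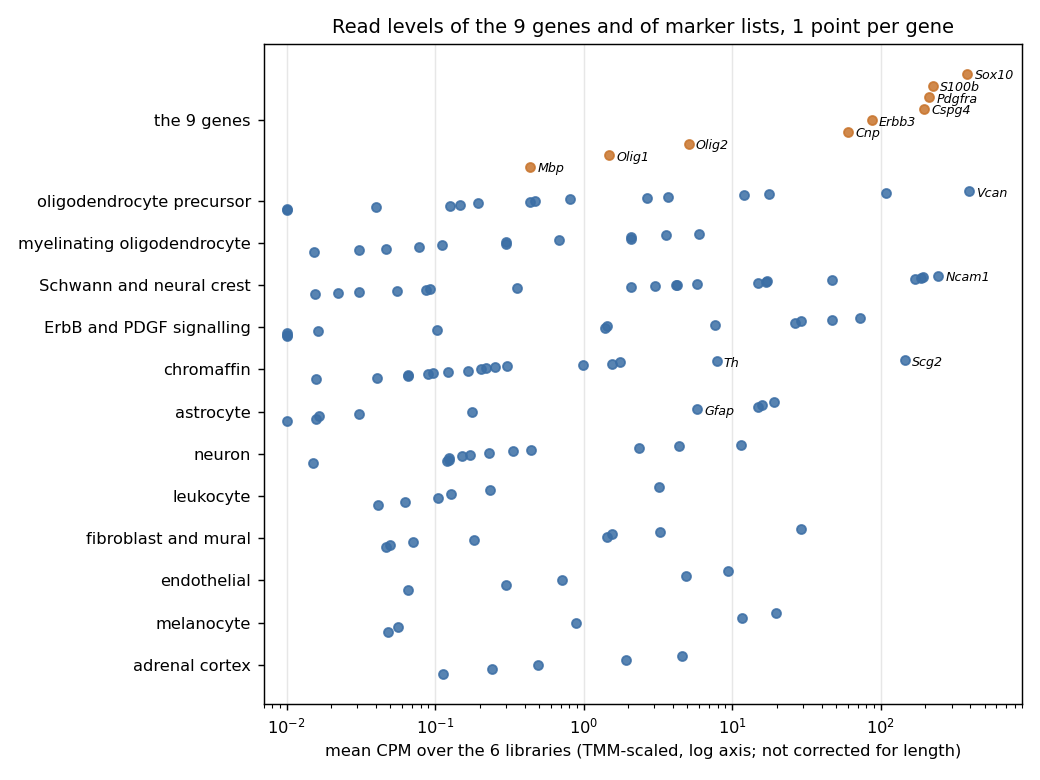
Mean CPM over the 6 libraries (TMM-scaled, log axis, not corrected for transcript length) of the 9 genes (orange) and of 12 lists of marker and partner genes (blue), 1 point per gene; means under 0.01 CPM are drawn at 0.01. Of the 9 genes, which were selected on their counts in these libraries, 6 lie above 10 CPM and 4 above 100 CPM. Above 10 CPM lie 4 of 15 oligodendrocyte precursor genes, 0 of 12 myelinating oligodendrocyte genes and, of the chromaffin genes, Scg2 alone.

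Then the 3 control libraries were compared with the 3 PCBP1-OE libraries. All 8 members that could be tested had a lower mean CPM in PCBP1-OE, with changes of -28.5% to -8.03%, but Cnp was the only one to pass the test. A gene was called at an adjusted p of 0.05 or less, from the quasi-likelihood test of edgeR and the Benjamini-Hochberg adjustment across the 12624 genes tested. Of all genes tested, 9.45% were called, 4.45% higher and 5.0% lower in PCBP1-OE. With 1 call among 8 members, the list stood close to that background in this fit. In DESeq2, 3 members were called, beside 11.2% of all genes. By the quasi-likelihood test, 6 of the 8 had an unadjusted p under 0.05, all lower in PCBP1-OE. Of all genes tested, 14.8% had such a p and a fold change below 0. The median log2 fold change of the 8 members was -0.15, beside 0.0029 over all genes tested, of which 49.5% had a fold change below 0. The groups did not overlap in 5 of the 8, with controls higher, while 30.6% of all genes tested showed no overlap, 16.5% with controls higher. Mbp had too few counts for the test. Among the marker lists, the summed level of the 9 astrocyte genes was 58.15 to 60.28 CPM in controls and 52.84 to 53.68 CPM in PCBP1-OE. That of the 6 leukocyte genes, mostly Cd68, was 4.029 to 4.36 and 3.04 to 3.88 CPM. That of the 12 ErbB and PDGF signalling genes was 184.4 to 198.1 and 179.3 to 182.3 CPM. In the remaining lists the summed levels of the groups overlapped. The part of any of these lists in the differences of the members was not tested.

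Cnp fell by 16.3% in mean CPM, or -0.26 ± 0.06 on the log2 scale (± standard error, adjusted p = 0.0179, quasi-likelihood test of edgeR). The call was lost without control replicate 2 (adjusted p = 0.0944), without PCBP1-OE replicate 1 (0.0775) and without PCBP1-OE replicate 2 (0.0567), and it was kept when any of the other 3 libraries was left out. Of all genes tested, the fits that lost it called 0.375%, 1.32% and 1.06%. The fits that kept it called 1.92% to 22.3%, beside 9.45% with all 6 libraries. The log2 fold change of Cnp stayed between -0.29 and -0.20 with any 1 library left out. Its direction thus held in each of these fits while its call did not. The promoter stretch of Cnp is the one printed above.

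For the abundant members the differences were small. On the log2 scale Sox10 differed by -0.12 ± 0.04 (± standard error, adjusted p = 0.0790, same edgeR fit) and S100b by -0.12 ± 0.05 (adjusted p = 0.122). The receptor Pdgfra was at -0.14 ± 0.04 (adjusted p = 0.0644), the proteoglycan gene Cspg4 at -0.16 ± 0.05 (adjusted p = 0.0678) and Erbb3 at -0.15 ± 0.05 (adjusted p = 0.0844). In that fit none of these passed, and each had an unadjusted p between 0.00764 and 0.0269. The share of all genes tested with an unadjusted p under 0.05 and a lower level in PCBP1-OE was 14.8% in the same fit. With the same 6 libraries, Cspg4 passed in edgeR without the filter on low counts (adjusted p = 0.0353) and in DESeq2 (0.0458), and Pdgfra passed in DESeq2 (0.0487). Without control replicate 3, Pdgfra (adjusted p = 0.0345) and Cspg4 (0.0479) passed, in a fit where 22.3% of all genes were called.

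The low members were not resolved. On the log2 scale Olig1 differed by -0.50 ± 0.29 (± standard error, adjusted p = 0.284, same edgeR fit) and Olig2 by -0.21 ± 0.16 (adjusted p = 0.422). With 1 library left out, the value of Olig1 ranged from -0.76 without PCBP1-OE replicate 3 to -0.33 without control replicate 2. Mbp, in a fit without the filter on low counts, had a log2 fold change of 0.08 with an adjusted p of 0.957 by edgeR.

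**Figure D3:**
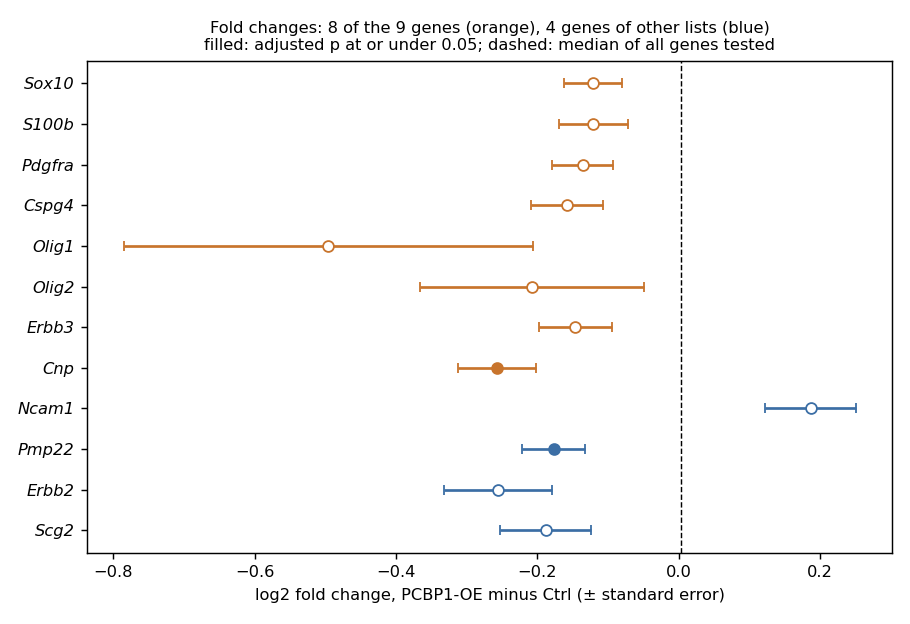
Log2 fold change (PCBP1-OE minus control) ± standard error of the 8 members tested (orange) and of Ncam1, Pmp22, Erbb2 and Scg2 (blue) from edgeR's quasi-likelihood fit; filled points have an adjusted p of 0.05 or less and the dashed line is the median of all genes tested, 0.0029. All 8 members lie left of the line, and Cnp and Pmp22 are filled.

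**Figure D4:**
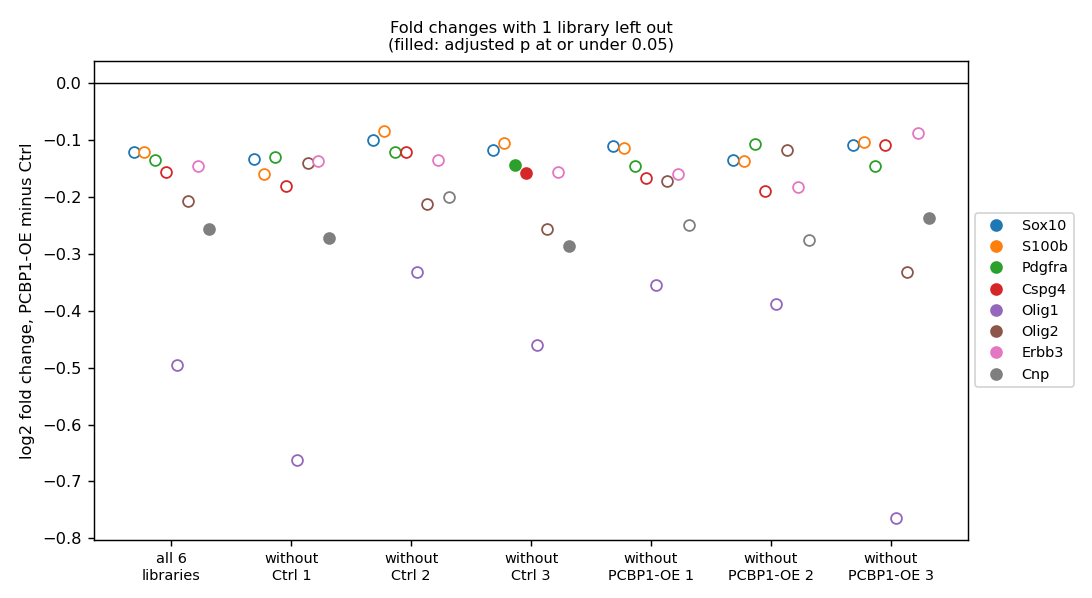
Log2 fold change (PCBP1-OE minus control) of the 8 members tested, with all 6 libraries and with each library left out in turn; filled points have an adjusted p of 0.05 or less. All values lie below 0. The number of filled points per fit runs from 0 to 3, in fits that called 0.375% to 22.3% of all genes tested.

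The neighbouring lists are given by their own counts, and their difference from the members was not tested. In the oligodendrocyte precursor list none of 8 genes tested was called, 4 were above 0 and 4 below, the median log2 fold change was -0.01, and the unadjusted p was under 0.05 in 0 of them by edgeR. DESeq2 also called 0 of these 8. In the mature oligodendrocyte list none of 5 was called by either tool, with a median of 0.08 and 0 at an unadjusted p under 0.05. The Schwann and neural crest list had a median of 0.13, with 10 of 13 genes above 0. The ErbB and PDGF signalling list had a median of -0.07, with 5 of 7 genes below 0, and the astrocyte list one of -0.20, with 3 of 4 below 0.

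In the Schwann and neural crest list, the quasi-likelihood test of edgeR called Pmp22 alone of 13 genes tested, beside 9.45% of all genes. DESeq2 (beside 11.2%) and the fit without the filter on low counts (beside 10.1%) each called 2 genes, Pmp22 and Ncam1. Pmp22 was counted 3455, 3925 and 3968 times in the control libraries and 3437, 3255 and 3163 times after overexpression, at 180.4 ± 6.63 and 159.6 ± 3.14 CPM (SD, n = 3 each). On the log2 scale it fell by 0.18 ± 0.04 (± standard error, adjusted p = 0.0315, same edgeR fit), and the call was lost when any library except control replicate 3 was left out (adjusted p = 0.0829 to 0.208). The fits that lost it called 0.375% to 5.42% of all genes tested. Ncam1 was at 0.19 ± 0.06 (adjusted p = 0.0792, same edgeR fit), with 4314, 4330 and 5701 counts in controls, and passed without the filter (0.00516), in DESeq2 (0.0379) and without control replicate 3 (0.00104). Without control replicate 3, 22.3% of all genes were called.

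Erbb2 was counted 592, 591 and 630 times without and 558, 501 and 437 times with overexpression, and its groups did not overlap in CPM. On the log2 scale it differed by -0.26 ± 0.08 (± standard error, adjusted p = 0.0529, same edgeR fit), and it passed in edgeR without the filter (0.0257), in edgeR's exact test (0.0341) and without control replicate 3 (0.0230). Among the 7 ErbB and PDGF signalling genes tested, the quasi-likelihood test called 0, with 1 at an unadjusted p under 0.05, DESeq2 called 0, and the exact test and the fit without the filter called Erbb2. In the chromaffin list 0 of 5 tested genes were called by the quasi-likelihood test and by DESeq2, with 1 at an unadjusted p under 0.05. That gene was Scg2, at -0.19 ± 0.06 (adjusted p = 0.0787, same edgeR fit), and it passed without the filter (0.0108) and without control replicate 3 (0.00645). The fit without control replicate 3, which passed Erbb2 and Scg2, called 22.3% of all genes tested. Th was at 7.95 ± 0.846 CPM in controls and 7.74 ± 0.789 CPM after overexpression (SD, n = 3 each), which differed by less than the spread of the libraries. The remaining lists, astrocyte, neuron, leukocyte, fibroblast and mural, endothelial, melanocyte and adrenal cortex, had 0 called genes by edgeR and by DESeq2 among those tested, and 2 astrocyte genes, Gja1 and S100a1, had an unadjusted p under 0.05 by edgeR, both with lower CPM in PCBP1-OE.

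Over the 6 libraries, the log2 CPM of Cnp followed that of Sox10 most closely among the members, with a Pearson's r of 0.960, followed by S100b at 0.935 and Cspg4 at 0.912. Erbb3 was at 0.803, Pdgfra at 0.782, Olig1 at 0.698 and Olig2 at 0.388. Among all genes tested, Coro1c, an actin-binding coronin, had the highest r with Sox10, at 0.995, followed by Yipf2, Tor2a, Scpep1 and Pomt2 at 0.989 to 0.994. These correlations rest on 6 libraries that share the same 2 groups, and 93 genes had an r of at least 0.95, so they are given as a description only.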

How the data were processed

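For 6 libraries, the deposited values are raw read counts for each gene, not normalized by the authors. According to the methods, reads were trimmed with FASTX-Toolkit, TopHat2 aligned them to rat Rnor_6.0, and uniquely mapped reads were counted. The submitters' processing notes name TopHat2, edgeR, bcl2fastq and a human build, while the gene IDs are those of rat. Which program counted the reads, with which annotation and strand option, is not given in the sources used here; counts of overlapping genes are therefore uncertain. The labels and the methods name different library kits, both strand-specific.

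Groups and replicate numbers were taken from the sample titles. Here, edgeR 4.0.16 (R 4.3.3) was run on all 6 libraries with TMM scaling, a filter on low counts by filterByExpr (at least 10 counts, 15 in total) that left 12624 of 20609 genes, and the quasi-likelihood test. Levels are CPM after TMM scaling, with totals of 19730209 to 22315623 counts per library. Data were simulated from the mean counts of these libraries, with the same dispersion set for every gene (12562 genes tested). The test recovered 88.0% of genes changed 2-fold (1 on the log2 scale) and 65.3% of genes changed by 0.5 on the log2 scale. All 8 members tested changed by less than that, Olig1 the most, at -0.496. Their spread was not simulated, so these rates do not apply to them. Members and lists were chosen with earlier results of these data known. Of 152 listed symbols, 134 matched a row, and the other 18 are not analysed here. Named genes are the 9 members, the 4 genes with most reads and up to 4 called genes of each list (lists of few detected genes are given in shorter form), defining markers, and the 5 genes most correlated with Sox10; some genes that this rule names are not reported here. As alternatives, DESeq2 1.42.0 and the exact test of edgeR replaced the main test, RLE or upper-quartile factors replaced TMM, the filter was dropped or set to 1 CPM in 3 libraries, the replicate number entered as a block, each library was left out, and CPM were taken from library totals. CPM per coding length was planned and not computed, because no transcript or protein lengths of the build were used here. Figures and tables were made in Python 3.11.15.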

Additional observations from a re-analysis of the deposited data

How the results depend on the processing

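All 8 members tested kept a fold change below 0 under all 13 alternatives of the test, and their median log2 fold change ranged from -0.16 to -0.13. The number of members called was 1 in the main fit, where 9.45% of all genes tested were called. It was 2 without the filter on low counts (Cnp and Cspg4), beside 10.1% of all genes. In DESeq2 it was 3 (Cnp, Cspg4 and Pdgfra), beside 11.2%. With 1 library left out it was 0 to 3, beside 0.375% to 22.3%. Except in the replicate block, it stayed at 1 in the other alternatives, beside 8.57% to 12.7%. Cnp was called in 9 of 13 alternatives (adjusted p = 4.8e-04 to 0.104), Cspg4 in 3 (0.0353 to 0.315) and Pdgfra in 2 (0.0345 to 0.262), and Sox10, S100b, Erbb3 and Olig2 in 0; Olig1 was called in 0 of 12, as DESeq2 gave it no adjusted p. Over all genes, 1193 were called, 562 higher and 631 lower; without the filter 2090 were called (1079 higher and 1011 lower), and with 1 library left out 48 to 2860 (36 to 1395 higher and 12 to 1465 lower). Upper-quartile scaling called 655 higher and 427 lower. The Schwann and neural crest list had 1 call, with 2 without the filter, 2 in DESeq2 and 0 to 2 with 1 library left out. The ErbB and PDGF signalling list had 0 calls, with 1 without the filter, 1 in edgeR's exact test and 0 to 1 with 1 library left out, and the chromaffin list had 0, with 1 without the filter and 0 to 1 with 1 library left out. CPM from library totals put Pdgfra at 220 CPM and Erbb3 at 90 CPM in controls. The causes were not tested.

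Libraries with the same replicate number did not deviate together: the correlation of their deviations from the group means across genes was -0.078, -0.051 and -0.043 for numbers 1 to 3. With the replicate number as a block, 0 members were called, 16 of all genes (14 higher and 2 lower) and 0 genes of the Schwann and neural crest list.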
